A study of Saccharomyces cerevisiae with 18 samples.

Results

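The 4 min labelling pulse itself was examined here in budding yeast strain RDY73: 3 cultures given 4-thiouracil (4tU) were set against 3 control cultures given no 4tU, 6 of the 18 libraries of the series. The libraries were selected by their strain and treatment labels, and the measure was all reads of a gene, labelled or not, so that the comparison asks how total RNA differed after 4 min with the label. RDY73 carries pGPD1-OsTIR1::HIS3, BDF2-3XV5-mAID-kanMX and BDF1-3XV5-mAID-URA3, so both BET-family bromodomain proteins, Bdf1 and Bdf2, bear the auxin degron and no untagged BDF1 is in the genotype. All cultures grew in YPD at 30 °C. The 4tU group received DMSO in place of auxin (IAA) for 25 min and then 5 mM 4tU for 4 min, and the control group received DMSO at both steps, with no IAA and no 4tU. Each group was a biological triplicate, per the labels. The same contrast was read in the 6 libraries of strain RDY234, which has the same alleles and an added pBDF1-BDF1::TRP1, and levels in the libraries that got 1 mM IAA during the 25 min before the pulse are placed beside some results. The RDY73 genotype expresses the plant F-box protein OsTIR1 from the GPD1 promoter in both groups, and how many independent clones were used is not given in the sources used here.

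4tU is a uracil analog. Yeast takes uracil up through the permease Fur4, and the phosphoribosyltransferase Fur1 joins it to ribose phosphate, after which it enters RNA. Iodoacetamide alkylates thiol groups, and an alkylated label is copied as C in place of T, a conversion that marks RNA made after the label was added (SLAM-seq). Budding yeast answers oxidants and thiol-reactive compounds through the transcription factor Yap1, which binds short sites in promoters of genes for efflux pumps, NADPH-dependent reductases and the glutathione and thioredoxin systems.

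Each library gave between 4177363 and 6541650 S. cerevisiae reads in RDY73 and between 387855 and 666963 reads of Schizosaccharomyces pombe, whose 4tU-labelled cells were mixed in before RNA extraction. Reads with at least 2 conversions, called labelled reads, made up 3.76%, 4.38% and 4.11% of S. cerevisiae reads in the 4tU libraries A, B and C, against 0.186%, 0.199% and 0.22% in the control libraries. The means were 4.08% ± 0.313 with 4tU and 0.202% ± 0.0171 in the control (SD, n = 3 each), a 20.3-fold difference with no overlap between groups (exact permutation test, two-sided, p = 0.1, the smallest that 3 against 3 allows). The treatment labels and the conversions therefore match in all 6 libraries. Expression of MF(ALPHA)1, the alpha-factor gene, was 5960 ± 123 spike-scaled reads with 4tU and 5640 ± 219 in the control, and BAR1, a protease gene of MATa cells, was at 9.08 ± 1.75 with 4tU and 11.1 ± 2.41 in the control (SD, n = 3 each). The tagged BDF1 locus stood at 751 ± 25.2 reads with 4tU and 748 ± 36.9 in the control.

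A pair of scales was used throughout. On the spike-in scale, a gene's reads were set against the summed S. pombe reads of its library, at the average spike-in depth of the series, and the result is called spike-scaled reads. On the relative scale, libraries were scaled over the S. cerevisiae genes themselves. S. cerevisiae reads per S. pombe read were 10.5, 10.8 and 9.1 in the 4tU libraries and 9.81, 9.65 and 9.38 in the control libraries. These values overlap, and their log2 difference was 0.07 (exact permutation test, two-sided, p = 0.4). The median log2 fold change of all 6100 tested genes was 0.03 on the spike-in scale, so the scales differ little. Of 5986 tested S. pombe genes, 0 passed an adjusted p of 0.05 between the same libraries (edgeR), while 282, or 4.71%, had an unadjusted p under 0.05. At least 50 reads in at least 3 of the 18 libraries was reached by 2124 S. pombe genes and 5453 S. cerevisiae genes. With fewer reads per S. pombe gene, the count of 0 says little about false calls among S. cerevisiae genes.

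After 4 min with 4tU a small set of genes was higher than in the control, and most genes gave no call. The highest fold changes were in YLR460C, PAU3, YCR102C and FLR1, with PAU3 on very low counts. On the spike-in scale 35 genes were higher in RDY73 with 4tU and 8 were lower, together 0.705% of the 6100 tested (0.574% higher and 0.131% lower; edgeR quasi-likelihood test, Benjamini-Hochberg adjusted p under 0.05). The count depends on the libraries fitted: leaving out 1 library at a time gave 17 to 28 higher and 4 to 7 lower, with the fewest higher without 4tU library B and the fewest lower without 4tU library C, and a fit to these 6 libraries alone gave 59 higher and 26 lower. Of the 43 genes, 24 lost the call in at least 1 fit without a library on the spike-in scale and 16 on the relative scale. The losses named for single genes are those on the spike-in scale. The scaled values of the 2 groups did not overlap in any of these 43 genes, which was so for 12.4% of all tested genes. All 43 also passed on the relative scale, which called 48 higher (0.787%) and 24 lower (0.393%), together 1.18% of genes. At an unadjusted p under 0.05 there were 365 genes, or 5.98%. Changes of more than 2-fold were seen in 19 of the higher genes and 3 of the lower. The smallest called changes were 0.50 upward and 0.64 downward on the log2 scale. Whether a difference in total reads comes from synthesis or decay is not given by these values.

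**Figure D1:**
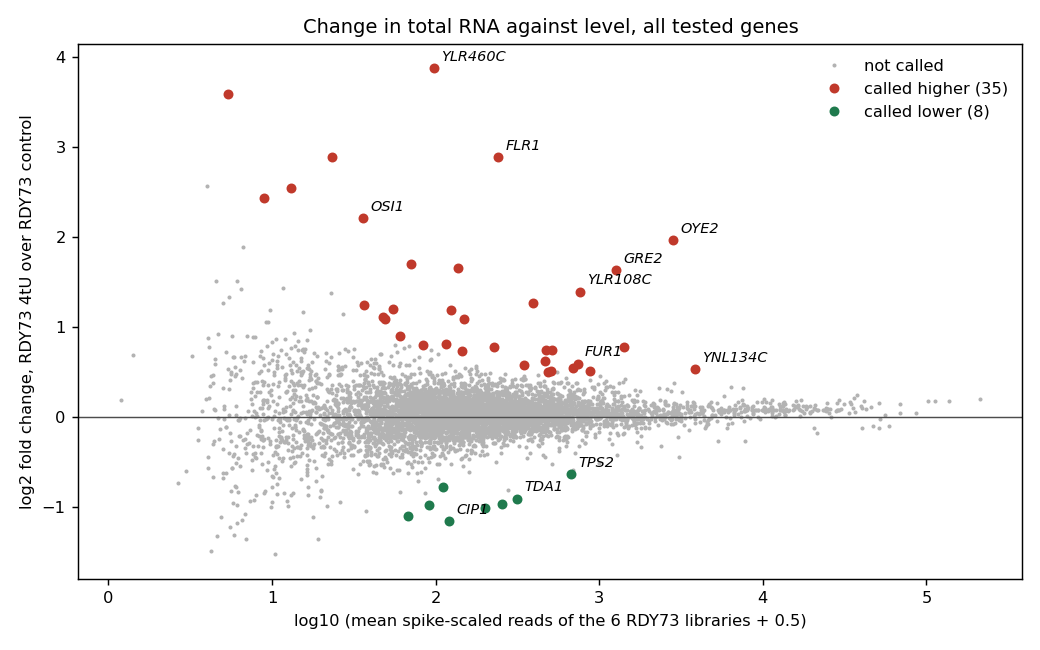
Log2 fold change of all reads (RDY73 4tU over RDY73 control, spike-in scale) against the log10 mean of spike-scaled reads, with each of 6100 tested genes as a point. The 35 genes called higher reach 3.87 for YLR460C and span low and high levels, and the 8 genes called lower lie between -0.64 and -1.16.

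The promoters of several of the higher genes are shown first, because Yap1-type sites recur in them. Windows of 300 bases upstream of the start codon, from the RefSeq R64 genome, were searched on both strands for TTACTAA, the Yap1 consensus. It was found in 14 of the 35 higher genes (40.0%), in 10 of the 19 genes higher by more than 2-fold (52.6%) and in 1 of the 8 lower genes, against 479 of the 6051 tested genes with a window (7.92%). A related site, TGACTAA, was added after the first count and was present in 3 of the 35 higher genes (8.57%) and 3.7% of tested genes. Either site was present in 16 of the 35 higher genes (45.7%), in 12 of the 19 over 2-fold (63.2%) and in 11.3% of tested genes. OYE2, ATR1, GRE2, GSH1, YML131W and CIS1 were among the higher genes with neither site in the window. The higher genes printed below were taken from those with a site. The Gcn4 site TGACTCA was in 1 of the 35 higher genes, that of ATR1, and the Rpn4 site GGTGGCA in 0 of 35, against 2.48% and 2.68% of tested genes. The Msn2/4 site CCCCT was in 20.0% of higher genes, in 4 of the 8 lower genes and in 21.7% of tested genes. A match is a run of letters, and binding was not measured. Capitals mark either Yap1-type site in either orientation, and each line runs 5′ to 3′ on the strand of its gene.
YLR460C (chrXII:1060888-1061187, minus strand): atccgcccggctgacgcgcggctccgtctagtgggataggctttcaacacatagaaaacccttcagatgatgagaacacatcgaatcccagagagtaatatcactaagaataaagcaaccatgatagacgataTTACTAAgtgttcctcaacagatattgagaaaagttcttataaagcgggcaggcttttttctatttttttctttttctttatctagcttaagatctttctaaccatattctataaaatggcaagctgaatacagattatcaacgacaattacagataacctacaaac
FLR1 (chrII:254210-254509, minus strand): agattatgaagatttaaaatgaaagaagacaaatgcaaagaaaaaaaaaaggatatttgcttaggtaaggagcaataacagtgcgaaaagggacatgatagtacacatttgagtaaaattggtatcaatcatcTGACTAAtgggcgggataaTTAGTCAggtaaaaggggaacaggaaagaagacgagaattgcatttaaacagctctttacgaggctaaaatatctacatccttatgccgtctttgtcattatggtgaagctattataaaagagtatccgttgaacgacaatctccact
OSI1 (chrXI:304814-305113, plus strand): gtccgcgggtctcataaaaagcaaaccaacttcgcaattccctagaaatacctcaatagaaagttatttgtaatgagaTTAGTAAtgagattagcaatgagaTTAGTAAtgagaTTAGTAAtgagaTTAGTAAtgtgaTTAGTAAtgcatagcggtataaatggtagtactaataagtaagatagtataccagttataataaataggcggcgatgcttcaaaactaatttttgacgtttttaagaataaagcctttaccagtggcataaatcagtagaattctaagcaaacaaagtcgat
GTT2 (chrXII:21840-22139, minus strand): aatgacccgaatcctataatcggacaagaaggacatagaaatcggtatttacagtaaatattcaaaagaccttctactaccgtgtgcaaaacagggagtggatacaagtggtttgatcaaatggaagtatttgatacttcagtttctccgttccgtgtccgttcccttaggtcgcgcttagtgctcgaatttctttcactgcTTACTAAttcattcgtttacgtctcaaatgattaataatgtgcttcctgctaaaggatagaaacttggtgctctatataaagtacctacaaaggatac
CIP1 (chrXVI:527247-527546, plus strand): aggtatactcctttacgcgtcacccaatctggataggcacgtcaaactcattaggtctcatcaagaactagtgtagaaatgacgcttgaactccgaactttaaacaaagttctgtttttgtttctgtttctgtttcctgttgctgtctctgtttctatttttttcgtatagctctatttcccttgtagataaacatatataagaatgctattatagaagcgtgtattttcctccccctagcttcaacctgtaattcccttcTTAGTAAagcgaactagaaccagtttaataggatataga
YLR460C, the gene with the highest fold change, had 1 site, 167 bases upstream of the start codon. OSI1 had 5 sites between 222 and 162 bases upstream in a repeated stretch. FLR1 had no TTACTAA in this window and 2 TGACTAA-type sites, at 167 and 148 bases, and GTT2 had 1 site at 98 bases. CIP1, shown because it was lower with 4tU, had 1 site at 39 bases.

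The membrane transporter genes FLR1, ATR1 and YHK8 rose. FLR1 and ATR1 stand in the list of Yap1 genes, and in the separate list of drug and weak-acid efflux genes 0 of 20 rose and 1, TPO4, fell on the spike-in scale. FLR1 (chromosome II, 252563 to 254209), a plasma membrane drug pump and a Yap1 target, had 380, 469 and 416 spike-scaled reads in the 4tU libraries A, B and C, against 55.4, 59.7 and 56.7 in the control libraries. Every 4tU library stood far above every control library, a 7.34-fold difference (log2 2.88 ± 0.16, SE; edgeR adjusted p = 6.6e-24). ATR1 (chromosome XIII, 38196 to 39824), which exports aminotriazole and other toxic compounds, had 242, 211 and 171 reads with 4tU, against 49.3, 90.1 and 60.7 in the control. ATR1 rose 3.14-fold (log2 1.65 ± 0.19, edgeR adjusted p = 8.62e-10), with no overlap between the groups. YHK8, a presumed drug transporter of the same superfamily, rose 2.36-fold from low counts (log2 1.24 ± 0.31, edgeR adjusted p = 0.0234), and its call was lost in 5 of the 6 fits that left out a library, all except the one without 4tU library A.

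Among the reductases, OYE2 (chromosome VIII, 462502 to 463704), one of the old yellow enzymes that reduce alpha,beta-unsaturated carbonyls with NADPH, gave the most reads of any gene over 2-fold. It had 4440, 4940 and 4160 spike-scaled reads in the 4tU libraries and 1130, 1150 and 1210 in the control libraries. The groups were widely apart, at 3.89-fold (log2 1.96 ± 0.13, edgeR adjusted p = 8.14e-21). Its paralog OYE3 (chromosome XVI, 226169 to 227371; 73.5% identical in coding sequence) rose 2.29-fold at a far lower level, with 84.2, 65.5 and 76.7 reads against 43.3, 22.0 and 32.8 in the control (log2 1.20 ± 0.26, edgeR adjusted p = 0.00523); the call was lost without 4tU library A or without control library B. GRE2, the methylglyoxal reductase, rose 3.10-fold, with 1990, 2040 and 1690 reads against 605, 612 and 626 in the control (edgeR adjusted p = 5.77e-17). The counting window of GRE2 overlaps another window on its strand, so reads of a neighbour may be included.

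YLR460C (chromosome XII, 1059757 to 1060887) and YCR102C (chromosome III, 304361 to 305467) encode proteins of the quinone oxidoreductase family and are 92.0% identical in coding sequence and 83.6% in the 300 bases upstream. YLR460C had 214, 149 and 185 spike-scaled reads in the 4tU libraries, against 14.7, 11.5 and 10.9 in the control libraries. This 14.6-fold difference (log2 3.87 ± 0.24, edgeR adjusted p = 3.2e-21) was the highest of the called genes. YCR102C had 29.4, 62.5 and 29.1 reads with 4tU and 4.33, 3.14 and 7.96 in the control, a 7.41-fold difference on low counts (log2 2.89 ± 0.41, edgeR adjusted p = 1.02e-06). Multimapped reads made up 0.555% of the reads of YLR460C and 0% of those of YCR102C, although the deposited counts may still divide reads of such similar genes unevenly. YNL134C, a further relative at 72.4% coding identity to YLR460C, rose 1.44-fold from a high level, with 4740, 4920 and 4020 reads against 3540, 3030 and 2910 in the control (edgeR adjusted p = 0.0132), in a window that overlaps another and with the call lost in 4 of 6 fits without 1 library.

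YLR460C and YCR102C each lie near a PAU gene near a chromosome end. PAU3, close to YCR102C, had 5.07, 11.9 and 10.7 spike-scaled reads with 4tU and 1.73, 0 and 0 in the control. PAU4, close to YLR460C, had 17.3, 11.9 and 13.6 with 4tU and 0.866, 5.24 and 1.99 in the control. Both passed the test (edgeR adjusted p = 0.022 for PAU3 and 0.0332 for PAU4), but PAU3 was lost with DESeq2 and in 4 and PAU4 in 5 of the 6 fits without 1 library, these counts are too low to give a reliable fold, and the 2 PAU genes are 82.9% identical. Genes within 30 kb of a chromosome end made up 9 of the 35 higher genes (25.7%) and 4.53% of the tested genes: PAU3, YML131W, YCR102C, AAD6, PAU4, YLR460C, GTT2, SDL1 and HSP31. The 30 kb limit was set after the distances were seen, and SDL1 at 29.0 kb and HSP31 at 29.8 kb lie just inside it, ahead of ATR1 at 38.2 kb. Within 20 kb there were 6 of the 35 (17.1%), against 2.35% of tested genes. Both near-end counts include the similar pairs YLR460C with YCR102C and PAU3 with PAU4. Reads may be shared within a pair, so its members may not count as separate genes.

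Thiol and redox genes were also among those that rose. GTT2 (chromosome XII, 21138 to 21839), a glutathione S-transferase, had 110, 116 and 95.1 spike-scaled reads with 4tU and 37.2, 32.5 and 27.9 in the control (3.25-fold, log2 1.70 ± 0.23, edgeR adjusted p = 2.31e-07). SRX1, the sulfiredoxin that repairs peroxiredoxins, had 217, 241 and 147 reads with 4tU and 119, 107 and 56.7 in the control (2.11-fold, edgeR adjusted p = 0.00154). GSH1, which catalyses the first step of glutathione synthesis, had 553, 695 and 520 reads with 4tU and 349, 371 and 338 in the control (1.67-fold, edgeR adjusted p = 0.000216). In each of these genes the groups were separate, with the narrowest gap in SRX1. CCS1, the copper chaperone of superoxide dismutase, rose 1.67-fold and HSP31, a glyoxalase of the DJ-1 family, rose 1.71-fold (edgeR adjusted p = 8.71e-05 for CCS1 and 0.000604 for HSP31, which did not pass without 4tU library B). AAD6, a presumed aryl-alcohol dehydrogenase, rose 2.11-fold with 66.8 ± 24.9 reads against 30.8 ± 2.85 in the control (edgeR adjusted p = 0.021), and its call was lost in every fit without 1 library other than that without 4tU library C.

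The higher genes of less defined function included OSI1 (chromosome XI, 305114 to 305884), named for induction by oxidative stress, with 61.9, 50.6 and 64.1 spike-scaled reads with 4tU and 18.2, 5.24 and 13.9 in the control (4.62-fold, edgeR adjusted p = 8.12e-06). YLR108C (chromosome XII, 366667 to 368124) had 1130, 1260 and 918 reads with 4tU and 420, 443 and 396 in the control (2.63-fold, edgeR adjusted p = 3.8e-12). YML131W (chromosome XIII, 10198 to 11295), similar to medium-chain dehydrogenases, had 631, 548 and 493 reads with 4tU and 245, 205 and 245 in the control (2.40-fold, edgeR adjusted p = 1.12e-09). All 3 separated the groups. CIS1, linked to drug resistance, rose 2.28-fold and MRX16, a mitochondrial protein, rose 2.16-fold (edgeR adjusted p = 8.05e-05 for CIS1 and 0.0143 for MRX16). MRX16 lost its call in 4 of the 6 fits that left out a library. CIS1 kept its call in all such fits on the spike-in scale but lost it in 3 of them on the relative scale. SDL1 passed on counts of 20.3, 26.8 and 17.5 with 4tU against 4.33, 2.1 and 3.98 in the control.

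**Figure D2:**
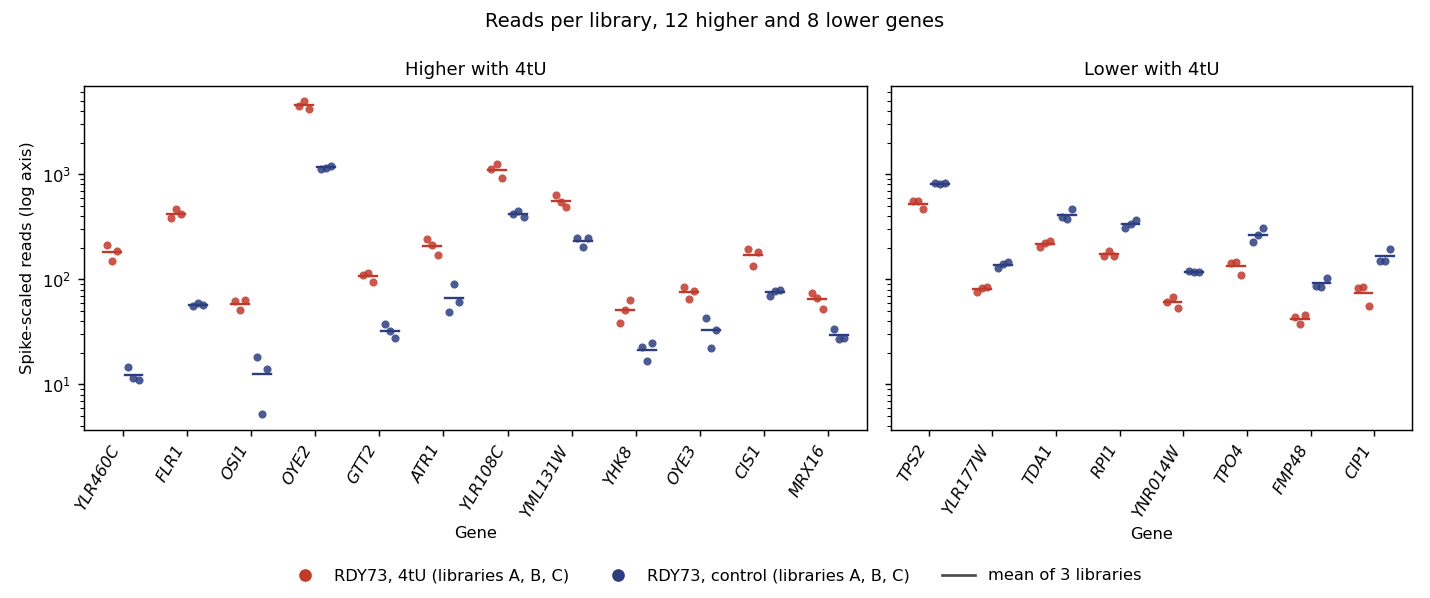
Spike-scaled reads per library (log axis) for 12 genes called higher and 8 called lower, with the RDY73 4tU libraries in red to the left of the RDY73 control libraries in blue and a bar at each mean of 3. No gene shown has overlapping groups, and the gap is widest for YLR460C (183 ± 32.7 with 4tU and 12.4 ± 2.03 in the control, SD).

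Genes of iron-sulfur protein assembly and iron supply formed a further set of calls of moderate size. DRE2, which acts with TAH18 early in the assembly of cytosolic iron-sulfur proteins, had 1890, 1840 and 1650 spike-scaled reads with 4tU and 1080, 1070 and 989 in the control (1.71-fold, edgeR adjusted p = 5.17e-05). TAH18 rose 1.74-fold, MRS4, a mitochondrial iron carrier, 1.66-fold, and ISU2, a scaffold on which the clusters are built, 1.42-fold (edgeR adjusted p = 0.038 for TAH18, 0.0362 for MRS4 and 0.035 for ISU2). These were grouped after their values were seen. In the list of iron regulon genes, ISU2 was the single call among 25 tested members, and the median log2 fold change was 0.00. Except for DRE2 these calls were lost when single libraries were left out, in 4 of 6 such fits for TAH18 and MRS4 and in 5 of 6 for ISU2. The MRS4 call was also lost with DESeq2 and in the fit without the IAA libraries, and the TAH18 window overlaps another on its strand. ROX1, the repressor of hypoxic genes, rose 1.45-fold (edgeR adjusted p = 0.0204). It was higher in every fit without 1 library, but no longer passed in any of the 6 on the spike-in scale, while on the relative scale it passed in all 6.

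FUR1 (chromosome VIII, 362115 to 362765), the enzyme by which 4tU enters the nucleotide pool, had 787, 1110 and 773 spike-scaled reads with 4tU and 565, 615 and 584 in the control. The groups did not overlap, at 1.51-fold (log2 0.59 ± 0.13, edgeR adjusted p = 0.00626), and library B was the highest. Without 4tU library B, or without control library A or C, the gene did not pass. In RDY234, FUR1 did not pass on the spike-in scale (log2 0.27 ± 0.13, edgeR adjusted p = 0.655) or the relative scale (log2 0.29 ± 0.09, edgeR adjusted p = 0.11). FUR1 was the single call in RDY73 among 19 tested genes of pyrimidine synthesis and uracil salvage, whose median was 0.09. FUR4, the uracil permease, averaged 42.7 ± 3.43 with 4tU and 66.5 ± 14.6 in the control (SD, n = 3 each; log2 -0.62 ± 0.30, edgeR adjusted p = 0.81). The uridine kinase gene URK1 averaged 294 ± 23.8 with 4tU and 237 ± 30.9 in the control, and the uridine permease gene FUI1 112 ± 59.6 with 4tU and 127 ± 6.61 in the control, and neither passed (edgeR adjusted p = 0.976 for URK1 and 1.00 for FUI1). The genes of de novo synthesis likewise gave no call: URA2, the first enzyme, averaged 1090 ± 154 with 4tU and 1120 ± 148 in the control, and URA1 358 ± 61.1 with 4tU and 342 ± 15.0 in the control.

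The 8 lower genes included regulators tied to nutrients and growth. CIP1 (chromosome XVI, 527547 to 528692), an inhibitor of the G1 cyclin-dependent kinase, had 83.2, 84.8 and 55.3 spike-scaled reads with 4tU and 150, 151 and 196 in the control. It fell to 0.446 of the control (log2 -1.16 ± 0.21, edgeR adjusted p = 0.000164), with the groups well apart. RPI1 (chromosome IX, 136654 to 137877), a putative regulator linked to Ras signalling and cell wall genes, had 167, 185 and 167 reads with 4tU and 311, 336 and 367 in the control (log2 -0.97 ± 0.15, edgeR adjusted p = 4.89e-06). TDA1 (chromosome XIII, 852630 to 854390), a protein kinase that responds to glucose, had 202, 222 and 232 reads with 4tU and 394, 378 and 464 in the control (log2 -0.91 ± 0.14, edgeR adjusted p = 5.21e-06). These 3 held in all 16 alternatives tried for them.

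The polyamine exporter gene TPO4 fell, with 143, 146 and 110 reads with 4tU and 229, 266 and 306 in the control (log2 -1.01 ± 0.20, edgeR adjusted p = 0.00579). TPS2, the trehalose-6-phosphate phosphatase, fell with 552, 552 and 462 reads against 818, 807 and 819 in the control (log2 -0.64 ± 0.14, edgeR adjusted p = 0.00407). FMP48, a mitochondrial protein similar to kinases, fell with 43.6, 37.2 and 45.6 reads against 86.6, 84.9 and 103 in the control (log2 -1.10 ± 0.24, edgeR adjusted p = 0.00523). The groups were separate in all 3, and TPO4 and TPS2 lost the call without 4tU library C, and FMP48 without 4tU library B or control library C. YNR014W and YLR177W, both of unknown function, were at 0.508 and 0.584 of the control (edgeR adjusted p = 0.0105 for YNR014W and 0.0246 for YLR177W), and the call of YLR177W was lost in all 6 fits without 1 library and that of YNR014W in 4 of them.

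Read by list, the Yap1 oxidative stress genes held the most calls. Of 39 tested, 9 rose and 0 fell on both scales: FLR1, OYE2, GTT2, ATR1, GRE2, OYE3, SRX1, AAD6 and GSH1. The list's median log2 fold change was 0.15 and 29 of the 39 had values above 0, against a median of 0.03 for all tested genes. This list was chosen with earlier results of these data known, so its counts are no independent evidence for the group. The abundant members of the thioredoxin and peroxiredoxin branch did not pass: TRX2 averaged 8400 ± 731 with 4tU and 6730 ± 527 in the control, TSA1 10500 ± 588 with 4tU and 9380 ± 475 in the control, and AHP1 30900 ± 2340 with 4tU and 29100 ± 1390 in the control (SD, n = 3 each; edgeR adjusted p = 0.508 for TRX2 and 1.00 for TSA1 and AHP1). TRR1, the thioredoxin reductase gene, averaged 1940 ± 230 with 4tU and 1590 ± 98.3 in the control (edgeR adjusted p = 0.565). YAP1 itself was at 337 ± 36.9 with 4tU and 359 ± 27.0 in the control (edgeR adjusted p = 1.00).

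The general stress genes under Msn2/4 had a median below that of all genes. Of 30 tested, 0 rose and 1, TPS2, fell on the spike-in scale, with a median of -0.18, and on the relative scale XBP1 and HXK1 fell too. At an unadjusted p under 0.05 (edgeR), 0 of the 30 were higher and 7 lower, beside 5.98% of all genes in either direction. CTT1, the cytosolic catalase and a member of both this list and the Yap1 list, averaged 149 ± 25.5 with 4tU and 179 ± 20.6 in the control and did not pass. The Hsf1 chaperone genes (26 tested) and the proteasome genes (34 tested) gave 0 calls on either scale (edgeR), with medians of 0.05 and 0.03 and 1 gene each at an unadjusted p under 0.05; DESeq2 called 0 in both. Of 26 genes of glucose and nutrient regulation, 3 fell (CIP1, RPI1 and TDA1), but these were placed in the list with their change already known, so the count is no evidence of a direction for the group.

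Ribosome biogenesis genes gave few calls and a median above that of all genes. Of 90 tested, 4 rose on the spike-in scale (NOG2, REI1, DBP2 and BFR2) and 7 on the relative scale, with 0 lower on either, and the median was 0.26, against 0.03 for all genes. At an unadjusted p under 0.05, 37 of the 90 were higher and 0 lower, beside 5.98% of all genes in either direction. REI1, which acts in late maturation of the large subunit, had 405, 429 and 404 reads with 4tU and 276, 271 and 280 in the control (1.49-fold, edgeR adjusted p = 0.0204). BFR2, of the small-subunit processome, had 1000, 1050 and 1050 with 4tU and 711, 700 and 770 in the control (1.42-fold, edgeR adjusted p = 0.038). Both separated the groups, and both lost the call in each of the 6 fits that left out 1 library. NOG2 and DBP2 lost the call in 3 and 5 such fits, and the NOG2 window overlaps another. The 137 cytosolic ribosomal protein genes gave 0 calls with a median of 0.09 and 0 genes at an unadjusted p under 0.05. The 25 genes of RNA polymerases I and III gave 0 calls with a median of 0.19 and 6 higher at an unadjusted p under 0.05 (edgeR; DESeq2 called 0 in both lists). Among the 20 genes of drug and weak-acid efflux, TPO4 fell and 0 rose on the spike-in scale, while SNQ2 and PDR16 rose on the relative scale (edgeR adjusted p = 0.0437 for SNQ2 and 0.0142 for PDR16).

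In all, 14 pathway lists gave 0 calls on both scales (edgeR), with medians between -0.03 and 0.19. Besides those above they were the Gcn4 amino-acid genes, purine synthesis, copper and zinc genes, the phosphate regulon, ergosterol synthesis, the RNA polymerase II machinery and its coactivators, translation factors, mitochondrial ribosomal proteins, nuclear oxidative phosphorylation and histones. At an unadjusted p under 0.05, 20 of their 554 tested entries (a gene in 2 lists counts in both) were higher and 5 lower, and DESeq2 called 0 on the spike-in scale.

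The relative scale called 13 further genes higher and 16 further genes lower, and those described here were chosen after their values were seen. Several of the lower ones encode regulators. CLN3, the G1 cyclin that Cip1 inhibits, averaged 421 ± 45.4 spike-scaled reads with 4tU and 605 ± 42.3 in the control (SD, n = 3 each; edgeR adjusted p = 0.000889 on the relative scale and 0.0621 on the spike-in scale). NRG1, a repressor of glucose-controlled genes, had 77.1, 41.7 and 61.1 reads with 4tU and 105, 126 and 100 in the control. CIN5, a Yap-family factor, averaged 202 ± 35.9 with 4tU and 353 ± 70.8 in the control. HAP4, the activator of respiratory genes, averaged 394 ± 54.9 with 4tU and 535 ± 39.5 in the control. Their adjusted p on the relative scale was 0.0234 for NRG1, 0.00186 for CIN5 and 0.014 for HAP4 (edgeR), and none of them passed on the spike-in scale. Among the further higher genes, NSR1, a nucleolar protein for ribosome synthesis, averaged 1650 ± 194 with 4tU and 1240 ± 92.8 in the control, and ADH6, an NADPH-dependent alcohol dehydrogenase, 1250 ± 171 with 4tU and 945 ± 41.5 in the control (edgeR adjusted p = 0.011 for NSR1 and 0.0235 for ADH6).

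The same contrast in RDY234 used other libraries. There 26 genes were higher (0.426%) and 15 lower (0.246%) with 4tU, 0.672% of 6100 on the spike-in scale, and 76 higher (1.25%) and 30 lower (0.492%) on the relative scale, 1.74%. All 35 genes higher in RDY73 and all 8 lower had the same sign in RDY234. The share of all tested genes with the same sign in both strains is not given here. Of the 35, 19 were called higher there too, which is 54.3% of the RDY73 calls and 73.1% of the RDY234 calls. Of the 8, 4 were called lower there (CIP1, TDA1, RPI1 and TPS2), 50.0% of the RDY73 calls and 26.7% of the RDY234 calls. The median log2 fold change of the 35 was 1.08 in RDY73 and 0.69 in RDY234, and that of the 8 was -0.97 in RDY73 and -0.57 in RDY234. Because the genes were picked on RDY73 values, their larger size in that strain is fixed in part by the choice.

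The difference between the strains was tested directly for every gene, and 0 of 6100 passed on either scale (edgeR). At an unadjusted p under 0.05 there were 81 genes on the spike-in scale, 1.33%, and 162 on the relative scale, 2.66%. DESeq2 called 0 on the spike-in scale and 2 on the relative scale, FLR1 and ETS1-1, a ribosomal spacer window. In RDY234, FLR1 had 414, 389 and 340 spike-scaled reads with 4tU and 115, 89.4 and 92.4 in the control (log2 1.94 ± 0.15), so that its control level was above that of RDY73 in every library. The strain difference of its log2 fold change was 0.93 ± 0.22 (SE; edgeR adjusted p = 0.394) on the spike-in scale and 0.89 ± 0.18 (edgeR adjusted p = 0.071) on the relative scale. YLR460C differed by 0.20 ± 0.36 between strains and OYE2 by 0.48 ± 0.17, and GRE2 by -0.22 ± 0.17. The labelled share of reads was higher in RDY234, at 7.29% ± 0.122 with 4tU and 0.373% ± 0.0356 in the control (SD, n = 3 each); its part in these values was not tested.

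**Figure D3:**
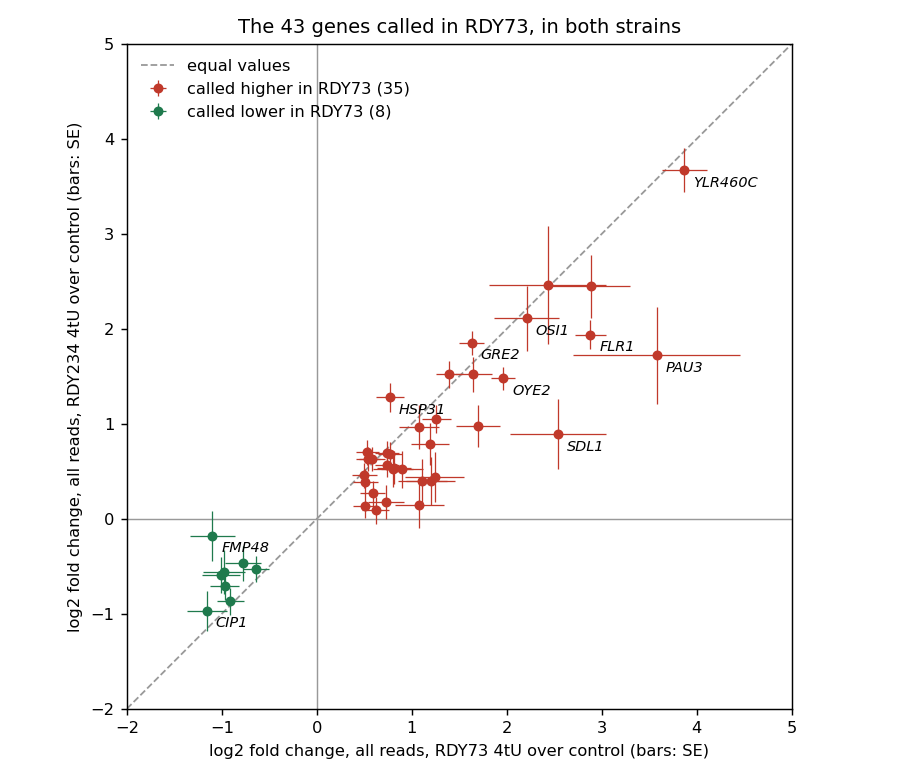
Log2 fold change with 4tU in RDY234 (vertical axis) against that in RDY73 (horizontal axis) for the 43 genes called in RDY73, with bars of 1 SE and a dashed line of equal values. All points lie in the quadrants of equal sign, FLR1 lies below the line (2.88 in RDY73 and 1.94 in RDY234), and HSP31 lies above it (0.77 in RDY73 and 1.28 in RDY234).

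Levels in RDY73 cultures given IAA and then 4tU, libraries used in neither contrast, are set beside the control as a description. S. cerevisiae reads per S. pombe read were 7.78, 8.84 and 8.16 there, against 9.81, 9.65 and 9.38 in the control, and most genes were lower on this scale. Of the 35 higher genes, 27 had a mean above the control mean, against 8.02% of all 6100 tested genes, and in 19 the 3 libraries lay above all control libraries, against 2.36% of tested genes. The 35 were picked as high against these same control libraries, so both counts are fixed in part by that choice. FLR1 averaged 372 ± 8.27, OYE2 4030 ± 453, GRE2 2050 ± 88.6 and YLR460C 157 ± 33.2 spike-scaled reads with IAA and 4tU (SD, n = 3 each). REI1 at 105 ± 10.4 and BFR2 at 398 ± 48.5 were below the control. Of the 8 lower genes, 7 had all 3 libraries below every control library, as had 79.1% of all tested genes, so this count says nothing particular to them. FMP48, at 92.3 ± 21.0, was the exception. These libraries differ from the control in both IAA and 4tU, and the effects of each cannot be told apart there.

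The labelled share of a gene is the percent of its reads with at least 2 conversions, which leaves out new RNA with fewer detected conversions. In the 4tU libraries the labelled share of the 35 higher genes had a median of 22.6% (from 5.49% to 54.2%), and 33 of them lay above the median of all tested genes, 9.37%, whose 10th to 90th percentiles ran from 2.86% to 19.0%. The 35 were picked on total reads of these same libraries, which include the labelled reads. A high share may therefore come in part from that choice. FLR1 had 29.0% labelled (324 of 1118 reads; 95% Wilson interval 26.4% to 31.7%) with 4tU and 1.69% in the control (3 of 178 reads; 0.575% to 4.84%). OYE2 had 26.9% with 4tU (3226 of 11979 reads; 26.1% to 27.7%) and 0.831% in the control, and YLR108C had 32.2% with 4tU and 1.45% in the control. YLR460C had 31.9% with 4tU (160 of 502 reads; 27.9% to 36.1%) and 0 of 39 reads in the control, which allows a share of up to 7.69% when a count of 0 is taken to allow 3 counts (the Wilson upper bound is 8.97%). FUR1, at 7.98%, and YNL134C, at 5.49%, were the 2 higher genes below the all-gene median. Intervals cover counting error only, since reads may be copies of 1 molecule.

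The lower genes were labelled too. Their labelled share had a median of 11.9% with 4tU (from 8.29% to 27.0%) and 0.292% in the control, and 7 of 8 lay above the all-gene median. CIP1 had 27.0% labelled with 4tU (53 of 196 reads; 95% Wilson interval 21.3% to 33.7%) and 0.584% in the control, and RPI1 had 22.6% with 4tU and 0.191% in the control. TPS2 had 9.56% with 4tU and 2.99% in the control (76 of 2538 reads; 2.40% to 3.73%), a control share well above the all-gene control median of 0.106%.

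**Figure D4:**
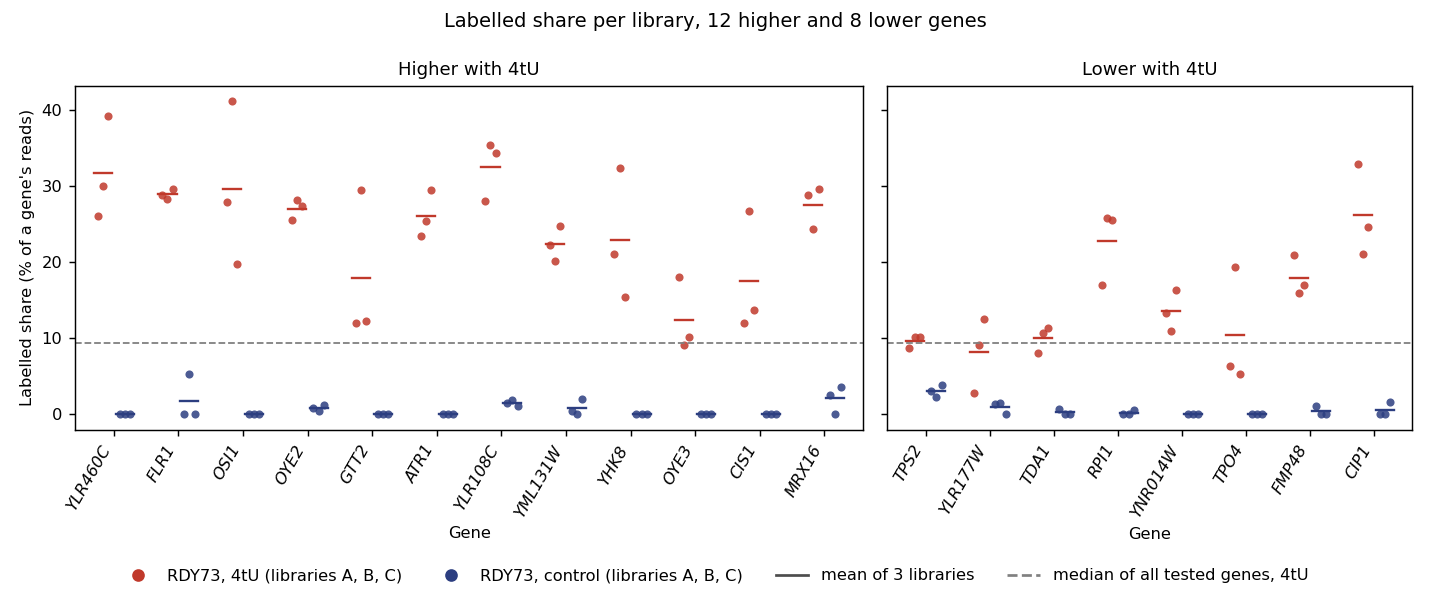
Labelled share, reads with at least 2 conversions as a percent of a gene's reads, per library for the same 12 higher and 8 lower genes, with RDY73 4tU in red to the left of RDY73 control in blue, bars at the means of 3, and a dashed line at the all-gene median with 4tU (9.37%). Most higher genes sit above the line in every 4tU library, and TPS2 and MRX16 have the highest control means.

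Reads with fewer than 2 conversions were compared on their own, on the spike-in scale. Of the 35 higher genes 17 passed there as higher, and the fit called no other gene higher (0.28% of 6073 genes). The median of the 35 was 0.69, while the all-gene median was -0.10. The higher and lower genes were picked on all reads of the same libraries, of which these reads are a part. Their passes here are therefore fixed in part by that choice. OYE2 averaged 3290 such reads with 4tU and 1150 in the control (log2 1.52 ± 0.12), and YLR460C 125 with 4tU and 12.4 in the control (3.32 ± 0.26). FLR1 gave a log2 fold change of 2.41 ± 0.16 in them. All 8 lower genes passed there as lower (0.856% of genes did), with a median of -1.18. CIP1 averaged 54.8 such reads with 4tU and 165 in the control (-1.61 ± 0.21), and RPI1 133 with 4tU and 337 in the control (-1.34 ± 0.15). Leaving out labelled reads takes more from the 4tU libraries than from the control libraries. A larger fall of the lower genes in reads with fewer than 2 conversions was therefore fixed in advance and adds no separate support. The iron-sulfur and ribosome biogenesis calls other than DRE2 did not pass in these reads, and neither did GSH1, at 471 with 4tU and 351 in the control (0.42 ± 0.14). New RNA with 0 or 1 detected conversion is counted among these reads, so they are not a pure measure of older RNA.

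**Figure D5:**
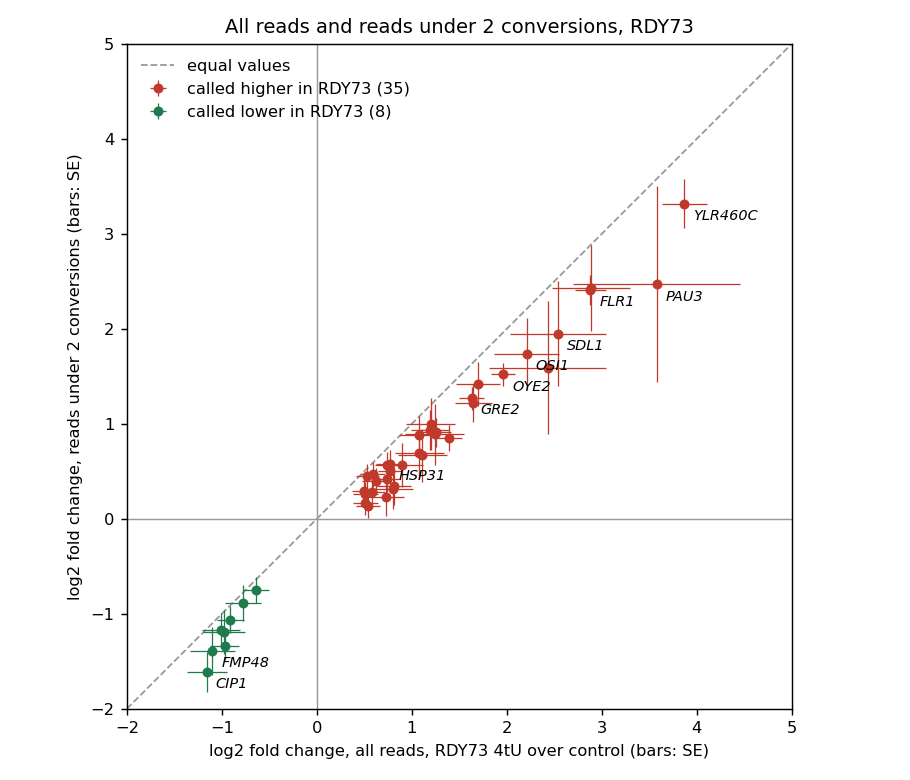
Log2 fold change of reads with fewer than 2 conversions (vertical axis) against that of all reads (horizontal axis) for the 43 called genes in RDY73, 4tU over control, with bars of 1 SE and a dashed line of equal values. Every gene lies below the line, where removal of labelled reads lowers the 4tU value, and all keep their sign, from 0.14 for ROX1 to 3.32 for YLR460C among the higher genes.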

How the data were processed

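The authors deposited counts per gene window from SLAM-DUNK 0.4.3 (per the file headers), made from 3′ mRNA-seq reads processed with fastp 0.23.2 (version per the submitters' processing notes). The builds named there are R64 and ASM294v2. The sources used here do not give mapping settings, masking of sequence variants, strand use or molecular identifiers. Of 6465 S. cerevisiae windows, 1316 overlap another on the same strand, and 6462 matched R64 genes.

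Groups follow the strain and treatment labels, with 3 libraries each. Genes with at least 10 reads in at least 3 libraries were tested with edgeR 4.0.16 (quasi-likelihood F test, robust, 1 mean per group over all 18 libraries), scaled to the S. pombe sum or by TMM, with Benjamini-Hochberg adjustment over 6100 genes at 0.05. A standard error is the log2 change over the root of F. The test was checked on simulated counts. DESeq2 1.42.0 was an alternative. Replicates of a group differed by more than sampling noise (chi-square of 3.55 to 9.27 per gene for each pair of libraries). Promoter windows came from RefSeq R64.

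Members and lists were chosen with earlier results of these data known. Named genes were, by rule, the 12 highest and 12 lowest changes (8 existed) called on both scales with a mean of at least 30 reads, separate groups and no overlapping window, then up to 4 calls per list, the engineered loci, the pyrimidine genes, and CIP1, TDA1 and RPI1. Other called genes named here were chosen after their values were seen.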

Additional observations from a re-analysis of the deposited data

How the results depend on the processing

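On the spike-in scale 17 of the 43 calls in RDY73 held under all alternatives run for them, and 24 were lost in at least 1 fit that left out a library. Such fits called 17 to 28 genes higher and 4 to 7 lower in RDY73 on the spike-in scale, with the fewest higher without 4tU library B and the fewest lower without 4tU library C, and 28 to 45 higher and 12 to 17 lower on the relative scale. In RDY234 they called 17 to 36 higher and 3 to 25 lower on the spike-in scale, and 37 to 72 higher and 14 to 29 lower on the relative scale. A fit to the compared libraries alone called 59 higher and 26 lower in RDY73 (82 and 46 on the relative scale) and 9 lower in RDY234. Reads under 2 conversions gave 17 higher and 52 lower in RDY73, and 27 and 52 on the relative scale. The strain difference on the relative scale gave 0 to 1 gene without single libraries (FLR1, without RDY73 4tU library A) and 2 with DESeq2. A threshold of 1 conversion moved the labelled share difference to 7.29 percentage points, against 3.88 with 2. Many of these fits used fewer samples or fewer reads, and the causes of the shifts were not tested. With a replicate block by letter, 35 genes were higher and 9 lower in RDY73; same-letter deviations correlated at 0.065, 0.037 and 0.063 over 5453 genes, and each letter correlated best with its own, but all fell under 0.1, so the letters were not taken to pair cultures. The DESeq2 test, TMM over S. pombe genes, filters, and the alternatives added after seeing the data (the S. pombe sum without multimapped windows, and fits without the IAA libraries) kept counts within 1.5 times, although DESeq2 lost PAU3 and MRS4, and the fit without the IAA libraries lost MRS4, on the spike-in scale in RDY73. The low counts of PAU3, PAU4 and SDL1 limit what their folds can show.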
